A study of Bos taurus with 45 samples.

Results

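The 100 most abundant transcripts of nuclear genes in the ruminal papillae of beef heifers were examined across 3 diets. The genes were chosen from the 24616 bovine gene IDs of the deposited values. All IDs were ranked by mean expression over the 15 samples taken on 3% grain, in RPM (the reads counted on a gene per 1000000 reads counted on all genes). Mitochondrial IDs and a further ID, ENSBTAG00000012330, were left out, as were genes whose mean within-heifer change in log2(RPM + 1) from 3% grain to 75% or 92% grain was 0.5 or more in size. The first 100 of the remaining genes were taken. Their level on 3% grain and their limited change from 3% grain were therefore conditions of the choice, and both are described without a test. All 100 were among the 11516 genes with RPM over 1 in all 15 heifers on at least 1 diet, which were the genes tested.

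The papillae came from 15 Angus-Hereford yearling heifers, biopsied in the ventral rumen sac once on each diet, which gave 45 samples, all from the group moved stepwise to grain. Every heifer followed the same stepwise change, with the 3% grain diet on days 1 to 4, the 75% grain diet on days 13 to 16 and the 92% grain diet on days 21 to 29. The diet percentages are those of the sample labels, and the methods of the study give slightly different ones for the same 3 diets. None of these heifers stayed on 3% grain, so diet, order of sampling and age cannot be told apart.

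Ruminal papillae carry a stratified, keratinised epithelium that lines the fermentation chamber, absorbs short-chain fatty acids and metabolises part of them, above a core of connective tissue and vessels. In most tissues a small number of genes supplies a large part of the messenger RNA, commonly genes for the protein synthesis machinery, the cytoskeleton and the specialised products of the tissue. Because RPM is a share of a fixed total, a change in a few such genes also moves the values of all others. The files name genes by Ensembl ID only, and the tables used here pair no symbol with any of the 100 IDs. The genes are therefore given by rank on 3% grain and, where they are described singly, by ID, and neither their function nor their position in the genome can be stated. For the same reason the labelled tissue could not be checked against marker genes. Papillae hold several cell types, and in such bulk samples fewer cells of a type and less RNA per cell cannot be told apart.

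The values correspond to between 22.5 and 37.1 M reads on genes per sample (M, 1000000). The median, 30.8 M, is above the mean number of reads per sample that the study states, a difference that was not resolved, and a pair of reads may have been counted as 1 or as 2. The smallest number of reads on any of the 100 genes in any sample was 7676, at which counting alone gives an SD of 0.0165 in log2 units. The smallest SD between heifers of any of the 100 genes on any diet was 0.0882, so counting error was a minor part of the spread of every gene. Some libraries stood apart over the 100 genes. The root mean square distance from the diet median in log2(RPM + 1) was 0.649 for the 3% grain sample of heifer 172, 0.582 for that of heifer 170 and 0.491 for that of heifer 294, against 0.377 or less in the other 42 samples. The levels, spreads and shares that rest on these libraries are also given without the 3 heifers, a choice made after seeing the data.

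The 100 genes held a nearly constant mean share of all reads on genes across the diets, which the limit on their change in the choice favours. Their summed share of RPM was 25.6% ± 1.36 (SD, n = 15) with 3% grain in the diet. It was 25.1% ± 0.590 with 75% and 25.3% ± 0.576 with 92% grain. On 3% grain the lowest, median and highest samples had 24.1%, 25.1% and 28.7%. On 75% grain they had 24.3%, 25.1% and 26.3%, and on 92% grain 24.5%, 25.3% and 26.7%. The ranges of the 3 diets overlapped, and the medians lay within the spread of each diet. The highest values of all belonged to the 3% grain samples of heifers 170 (28.7%), 172 (27.7%) and 294 (27.2%), and without any 1 heifer the mean on that diet ran from 25.4% to 25.7%. Without these 3 heifers the shares were 25.0% ± 0.699, 24.9% ± 0.434 and 25.4% ± 0.605 (SD, n = 12) in the order of the diets. Within heifers, the share on 75% grain differed from that on 3% grain by -0.450 ± 1.09 percentage points (SD, n = 15), from -2.77 to 1.44. The share on 92% grain differed from that on 3% grain by -0.258 ± 1.53 points, from -3.28 to 2.51. Between the later diets, the share on 92% grain differed from that on 75% grain by 0.192 ± 0.824 percentage points, with 9 heifers higher and 6 lower. The 100 genes next in rank by the same rule held 7.29% ± 0.243 of RPM on 3% grain, against 7.43% ± 0.196 on 75% and 7.27% ± 0.169 on 92% grain.

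The mitochondrial genes that were left out took up a varying part of the same total. They held 17.0% ± 2.53 of RPM on 3% grain, against 15.0% ± 1.39 on 75% and 15.7% ± 2.87 on 92% grain, and their highest single value was 25.0%, in the 92% grain sample of heifer 286. That sample had 24.5% of its RPM on the 100 genes, the lowest value of its diet. As a share of the reads outside mitochondrial genes, the 100 genes held 30.8% ± 1.15 on 3% grain, against 29.6% ± 0.659 on 75% and 30.1% ± 1.04 on 92% grain. On this scale the sample of heifer 286 was the highest of its diet, at 32.6%. Its place among the samples thus went from lowest to highest with the choice of the total.

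**Figure D1:**
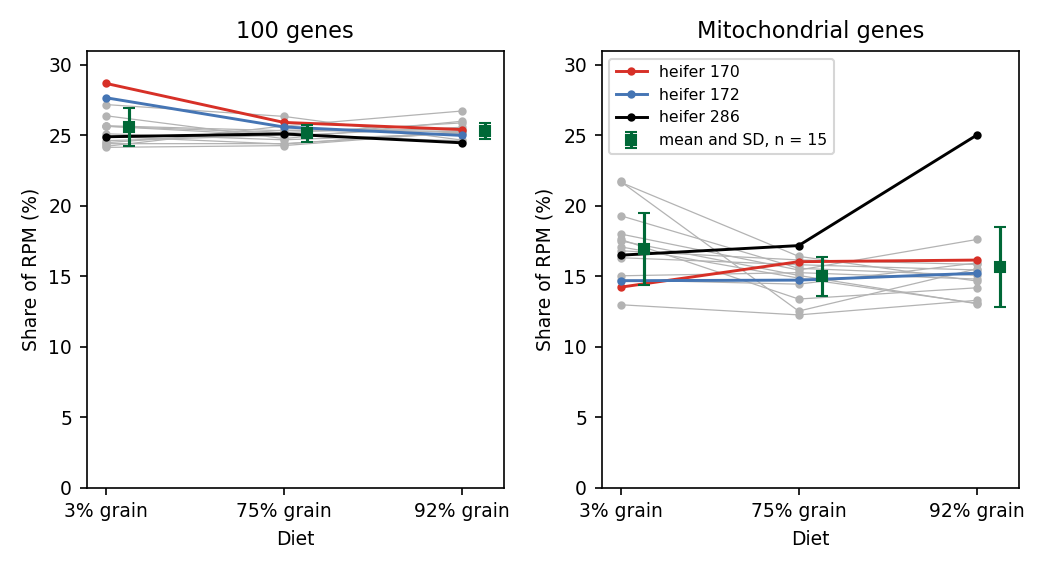
Share of RPM (%, axis from 0) held by the 100 genes (left) and by the mitochondrial genes (right) in each of the 45 samples; lines join the 3 samples of a heifer, squares and bars are the mean and SD of 15 heifers. The 100 genes sit between 24.1% and 28.7% in every sample, with heifers 170 and 172 highest on 3% grain, and heifer 286 has the highest mitochondrial share on 92% grain, 25.0%.

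Abundance fell steeply with rank among the 100 genes. On 3% grain the first gene alone held 1.72% of RPM, the first 5 held 6.29%, the first 10 held 9.81% and the first 50 held 19.4%. The gene of rank 1, ENSBTAG00000006806, had 17165 ± 4205 RPM (SD, n = 15), and the gene of rank 100, ENSBTAG00000006487, had 982 ± 139 RPM. Around the border of the list, the genes of ranks 98, 99 and 100 had 998, 985 and 982 RPM, and the first 3 genes outside had 981, 977 and 975 RPM. Membership at this end was thus a matter of less than 1 SD between heifers. Only 2 nuclear genes abundant enough to rank among the 100 were left out for their change: ENSBTAG00000007583, with 3320 RPM on 3% grain and a change of -0.62 in log2(RPM + 1) from 3% to 92% grain, and ENSBTAG00000039504, with 1686 RPM and a change of -0.52.

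Most of the 100 genes stayed among the most abundant on the later diets, which the limit on their change in the choice favours. Without any limit on change, 94 of the 100 genes were also among the 100 highest nuclear genes on 75% grain and 95 on 92% grain. On 3% grain itself 98 were. Order within the 100 moved for some genes. The gene of rank 19 stood at rank 34 on 75% grain and 33 on 92% grain, and that of rank 76 at 52 and 46. ENSBTAG00000006806 had the highest mean on all 3 diets. Its lowest, median and highest RPM were 11583, 16081 and 27100 on 3% grain, 11859, 14955 and 19024 on 75% grain and 10067, 14037 and 19838 on 92% grain. The ranges overlapped broadly, and the highest values were those of 3% grain. ENSBTAG00000039425, of rank 2, averaged 12694 ± 3155 RPM with 3% grain, 10540 ± 1924 RPM with 75% and 9977 ± 2248 RPM with 92%, which placed it at rank 5 of the 100 on both later diets. ENSBTAG00000036116, of rank 6, averaged 9105 ± 1418 RPM with 3% grain, 12218 ± 3052 RPM with 75% and 11710 ± 1496 RPM with 92%. Its values exceeded those on 3% grain in 14 of 15 heifers on each later diet, and it stood at rank 3 of the 100 on 75% grain. The genes of ranks 4 and 5, ENSBTAG00000004097 and ENSBTAG00000011941, had 11751 ± 2256 and 9377 ± 2927 RPM on 3% grain, and on 92% grain 12921 ± 2026 and 7749 ± 1366 RPM. Over the 45 samples, the gene whose log2(RPM + 1) followed that of ENSBTAG00000006806 most closely was ENSBTAG00000039425 (Pearson r = 0.865, a description only, since the samples come from 15 heifers and all values share the RPM total). Of the 5 tested genes most like it, 2 belonged to the 100, those of ranks 2 and 89, and the lowest of the 5 coefficients was 0.747.

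**Figure D2:**
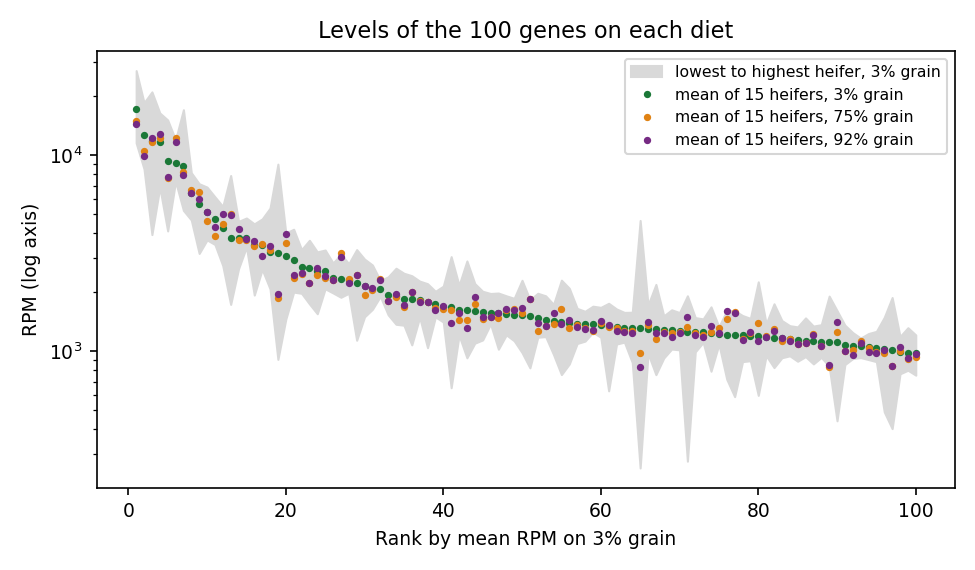
RPM (log axis) of the 100 genes by rank on 3% grain; points are means of 15 heifers on each diet and the grey band runs from the lowest to the highest heifer on 3% grain. The means on 3% grain run from 17165 RPM at rank 1 to 982 RPM at rank 100, and those of the other diets lie near them at most ranks. At ranks 19 and 65, where the band is wide, the means on 75% and 92% grain lie well below.

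The change from 3% grain was limited by the choice to less than 0.5 in log2(RPM + 1), and most of the 100 genes lay well inside that limit. The mean within-heifer change was under 0.25 in size for 88 of them on 75% grain, 84 on 92% grain and 82 on both. Of the 11516 tested genes, 9317, 9358 and 8557 had changes this small. Of the 100 genes next in rank by the same rule, 86, 91 and 84 did, so small changes were not particular to the 100 genes. Values on 75% grain were above those on 3% grain for 39 of the 100 genes, and values on 92% grain for 45. Of the 11516 tested genes they were above for 8437 and 7509. The 100 genes were also ranked on their 3% grain values, and the part this plays in the lower counts was not tested. The median change was -0.03 on 75% grain and -0.02 on 92% grain, where the median over all 11516 tested genes, most of which had no such limit to meet, was 0.08 and 0.06. The gene nearest the limit was that of rank 13, ENSBTAG00000004855, with a mean change of 0.46 ± 0.58 (SD, n = 15) on 75% grain and 0.43 ± 0.48 on 92% grain. Its means were 3795 ± 1685 RPM with 3% grain, 5019 ± 1437 RPM with 75% and 4941 ± 1482 RPM with 92%. Its lowest and highest values on 3% grain, 1738 and 7903 RPM, enclosed the whole of its range on 75% grain, 2613 to 7509 RPM. The gene of rank 77, ENSBTAG00000015107, had higher values on 75% than on 3% grain in 15 of 15 heifers, with means of 1583 ± 184 and 1218 ± 306 RPM. Both comparisons with 3% grain share the same 3% grain samples.

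The step from 75% to 92% grain was not used to choose the genes, although the limits on both changes from 3% grain keep it under 1 in log2 units. It was tested with limma on log2(RPM + 1) over all 11516 genes, without a term for the heifer. All 15 heifers were pooled. The study instead compared this step within the group of heifers whose ruminal pH fell and within that whose pH rose. It reported changed genes in both. The heifers with a similar pH on both diets were not selected for that comparison, but are included here. The counts below therefore belong to another comparison. A gene was called where its p, adjusted by the Benjamini-Hochberg method, was under 0.05 and its fold change over 1.5. None of the 100 genes was called by limma, and the share called among all tested genes was also 0.0%. With the adjusted p alone the result was again 0 of 100 and 0.0%, and the smallest adjusted p among the 100 genes was 0.177. At an unadjusted p under 0.05 there were 7 of the 100 genes, against 11.5% of all tested genes.

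The other tools gave much the same count for the 100 genes. On the reads recovered from RPM, edgeR called 0 of the 100 genes with or without the limit on fold change, against 0.0% and 0.0261% of all tested genes, and 7 of the 100 had an unadjusted p under 0.05, against 11.9%. DESeq2 likewise called 0 of the 100 under both rules, against 0.122% and 0.538%, with 9 of the 100 at an unadjusted p under 0.05, against 12.5%. With the heifer as a replicate block, limma called 0 of the 100 genes under both rules, against 0.122% and 0.799% of all tested genes, with 10 of the 100 at an unadjusted p under 0.05, against 17.7%. With the same block edgeR called 0 of the 100 genes with a fold change over 1.5, against 0.261%, and 1 of the 100 by the adjusted p alone, against 1.34%, with 12 at an unadjusted p under 0.05, against 17.4%.

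The estimated changes between 75% and 92% grain were small. They ran from -0.30 to 0.21 in log2 fold change, 53 of them above 0, with a median of 0.0041, where the median of all tested genes was -0.03. The 95% interval of the change lay wholly inside a 1.5-fold change in either direction for 97 of the 100 genes in limma, against 96.0% of all tested genes, which is near the background. The genes of ranks 43, 65 and 80 were the exceptions, with intervals reaching -0.60, -0.64 and -0.71.

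The 1 gene called by edgeR with the replicate block was that of rank 54, ENSBTAG00000014191, named here after its values were seen. Its lowest, median and highest RPM were 1002, 1384 and 1624 on 75% grain and 1378, 1573 and 1755 on 92% grain, and the ranges overlapped. All 15 heifers had more of it on 92% grain, and the log2 fold change was 0.20 (SE 0.059). Its adjusted p was 0.177 in limma, 0.0596 in limma with heifers as replicate blocks and 0.0369 in edgeR with them. On 3% grain it had 964, 1541 and 1738 RPM as its lowest, median and highest values, a range that held all values on 75% grain. The lowest adjusted p among the genes with lower values on 92% grain was that of rank 55, ENSBTAG00000013162, also named after its values were seen. Its means were 1645 ± 203 and 1384 ± 304 RPM on 75% and 92% grain (SD, n = 15), 12 of 15 heifers had less of it on 92% grain, and the log2 fold change was -0.27 (SE 0.088, limma adjusted p = 0.227, and 0.119 with heifers as replicate blocks).

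**Figure D3:**
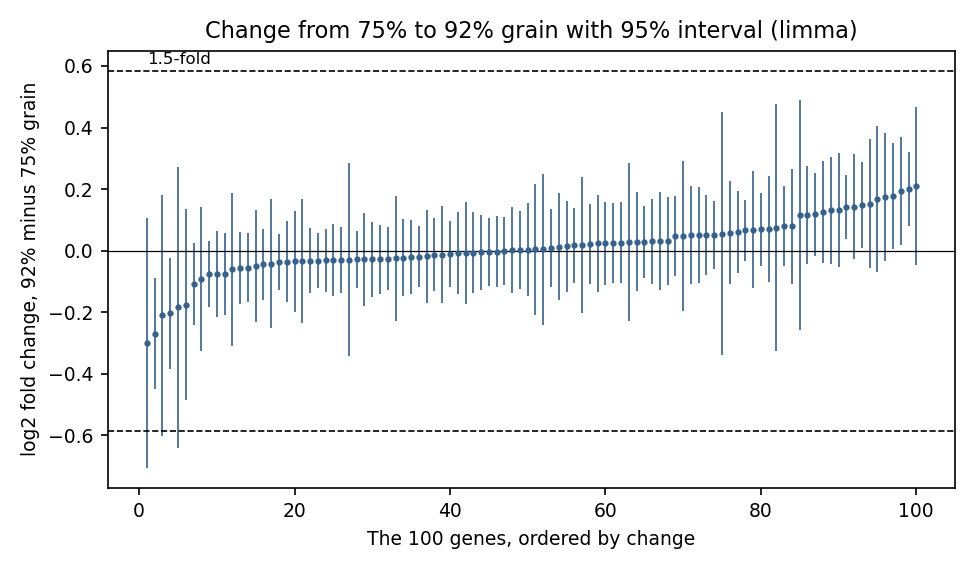
log2 fold change from 75% to 92% grain for each of the 100 genes in order of size, with 95% intervals from limma; dashed lines mark a 1.5-fold change. All estimates lie between -0.30 and 0.21, and 97 of the 100 intervals stay inside the dashed lines. The intervals shown leave out the pairing by heifer, and with the heifer as a replicate block 99 stay inside.

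Values differed between the samples of different heifers on every diet. Each heifer gave 1 sample on each diet, so differences between animals, biopsies and libraries cannot be told apart in this spread. On 3% grain the SD of log2(RPM + 1) between heifers ran from 0.0891 to 1.37 over the 100 genes, with a median of 0.233, and the medians were 0.194 on 75% grain and 0.192 on 92% grain. The medians of all tested genes were 0.224, 0.201 and 0.214 on the 3 diets. The SD exceeded 0.5 for 10 of the 100 genes on 3% grain, for 5 on 75% and for 6 on 92% grain, and without heifers 170, 172 and 294 for 5, 7 and 6. The narrowest spread over the 45 samples was that of rank 84, ENSBTAG00000011559, at 1161 ± 106 RPM with 3% grain, 1153 ± 90.9 RPM with 75% and 1124 ± 82.0 RPM with 92%. Its 45 values lay between 950 and 1354 RPM.

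The 2 genes with the widest spread were those of rank 65, ENSBTAG00000012640, and rank 19, ENSBTAG00000001785. On 3% grain ENSBTAG00000012640 had 254 RPM in the lowest heifer, a median of 615 RPM and 4660 RPM in the highest heifer, a span of 18.3-fold. On 75% grain the same values were 334, 801 and 2454 RPM, and on 92% grain 398, 775 and 1407 RPM. For ENSBTAG00000001785 they were 911, 1805 and 9032 RPM with 3% grain, 909, 1769 and 3464 RPM with 75%, and 1096, 1664 and 3869 RPM with 92%. The medians of the 3 diets lay close together for ENSBTAG00000001785, and for ENSBTAG00000012640 the median was lowest on 3% grain. The top of the range was far higher on 3% grain for both genes. The same 3 samples were the highest of all 45 for both genes: the 3% grain samples of heifers 172, 170 and 294, with 4660, 3629 and 3553 RPM of ENSBTAG00000012640 and 9032, 7044 and 8973 RPM of ENSBTAG00000001785. Without these 3 heifers the span on 3% grain was 7.77-fold for ENSBTAG00000012640, from 254 to 1976 RPM, and 5.04-fold for ENSBTAG00000001785, from 911 to 4592 RPM. The SDs of log2(RPM + 1) on 3% grain fell from 1.37 to 0.82 and from 1.12 to 0.66.

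More genes among the 100 were high or low in these samples. ENSBTAG00000012638, of rank 7, had 17123, 15704 and 15587 RPM in the 3% grain samples of heifers 170, 172 and 294, where the median of that diet was 7047 RPM. On 75% and 92% grain the same heifers had between 6567 and 10227 RPM, inside the range of the other heifers. Without them its mean on 3% grain was 7025 ± 1783 RPM (SD, n = 12), in place of 8848 ± 4103 RPM. ENSBTAG00000026813, of rank 71, went the other way and had 430 and 275 RPM in the 3% grain samples of heifers 170 and 172, the lowest of the diet, against a median of 1237 RPM. In heifer 294 it had 1179 RPM, near that median. The means of such genes on 3% grain, by which they were ranked, therefore rested in part on a few heifers, and ENSBTAG00000012640 had a mean of 1315 RPM beside a median of 615 RPM. Without the 3 heifers that mean was 656 ± 461 RPM (SD, n = 12), below the level of rank 100.

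The SD between heifers was smaller on 75% grain than on 3% grain for 79 of the 100 genes and smaller on 92% grain than on 3% grain for 73, against 63.3% and 57.3% of all tested genes. For the 100 genes next in rank by the same rule these counts were 69 and 72. Between 75% and 92% grain, 54 of the 100 genes had the smaller SD on 92% grain. That held for 45 of the 100 genes next in rank and for 44.3% of all tested genes. These counts are descriptions, since 3% grain was part of the choice. Without heifers 170 and 172, the counts against 3% grain were 51 and 53 of the 100 genes, against 52.0% and 46.3% of all tested genes. Without heifers 170, 172 and 294, they were 39 and 41 of the 100 genes, against 48.6% and 43.3%, and the median SD was 0.187, 0.193 and 0.197 in the order of the diets. The 3 heifers were picked for the distance of their 3% grain samples, and leaving out such samples lowers the spread on that diet. No samples far from the median of the other diets were left out in the same way. The counts thus depended on these 3 heifers, but the comparison without them cannot decide whether spread differed by diet.

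**Figure D4:**
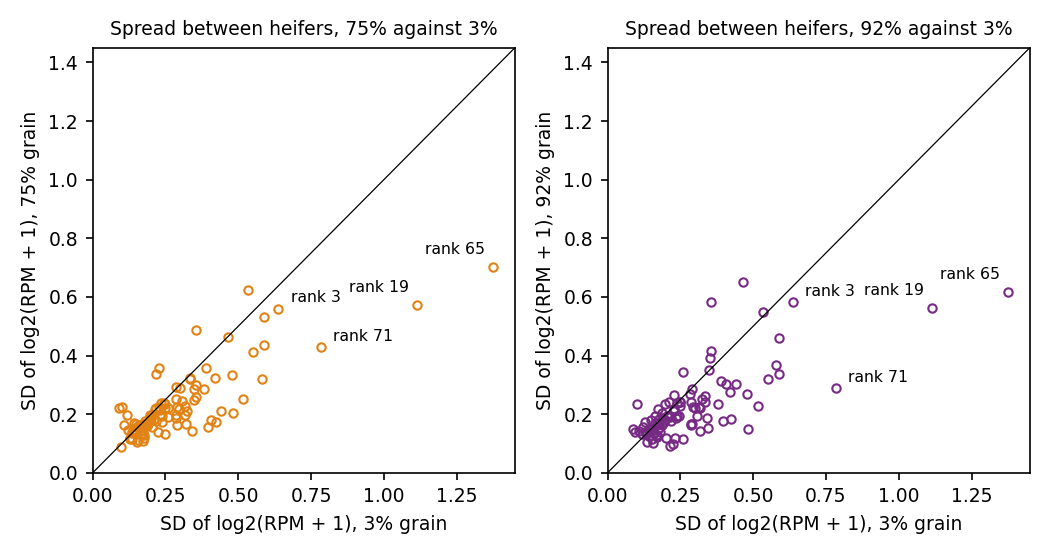
SD of log2(RPM + 1) between 15 heifers on 75% grain (left) and 92% grain (right) against that on 3% grain for each of the 100 genes; the line marks equal spread. Points below the line, 79 of 100 on the left and 73 of 100 on the right, had the smaller SD on that diet. The counts were 39 and 41 without heifers 170, 172 and 294, which were picked for their distance on 3% grain. The genes of ranks 65 and 19 lie farthest right.

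Some differences between heifers were kept across the diets. The heifer term was tested with the F test of limma, in a fit of log2(RPM + 1) on diet and heifer over all 45 samples. The choice did not use this term, but the fit includes the samples of the first diet, on which the genes were ranked. The count over all 45 samples is therefore not fully independent of the choice. The heifer term passed an adjusted p under 0.05 for 26 of the 100 genes, against 22.1% of all tested genes. The share of the 100 genes was thus near that of all tested genes. It was below that of the 100 genes next in rank, of which 39 passed. With only the samples on 75% and 92% grain, 9 of the 100 genes passed, against 11.5% of all tested genes. Of the 100 genes next in rank 16 then passed. The share of variance between heifers, after the diet means were removed, had a median of 0.206 over the 100 genes, 0.303 over the 100 genes next in rank and 0.185 over all tested genes (an estimate from mean squares that can fall below 0). It was over 0.5 for 11 of the 100 genes, for 14 of the 100 genes next in rank and for 8.57% of all tested genes.

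The gene of rank 3, ENSBTAG00000031376, had the largest share of variance between heifers, 0.820 (F = 14.6, limma adjusted p = 8.14e-08). Its diet means lay close together, at 11882 ± 4841 RPM with 3% grain, 11666 ± 3887 RPM with 75% and 12287 ± 3833 RPM with 92% (SD, n = 15). The lowest and highest heifers differed by 5.35-fold, 4.10-fold and 4.94-fold on the 3 diets. Heifer 178 was the lowest on each diet, with values between 3863 and 4342 RPM, and heifer 182 came next with a mean of 7234 RPM over its 3 samples. At the upper end, the 3 samples of heifer 170 lay between 15058 and 21106 RPM and those of heifer 294 between 14593 and 18419 RPM. The ranges of the lowest and the highest heifers did not overlap. Without heifer 178 its F was 6.99 (limma adjusted p = 0.000231), and without any other heifer the adjusted p was lower still. The F was 7.86 with no expression filter (limma adjusted p = 8.43e-05).

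Other genes kept a heifer order with different heifers at the ends. ENSBTAG00000014534, of rank 61, had means of 1352 ± 273, 1340 ± 251 and 1362 ± 326 RPM on 3%, 75% and 92% grain, and 0.762 of its variance lay between heifers (limma adjusted p = 1.99e-06). Its 3 samples of heifer 172 had between 628 and 759 RPM, below all 42 samples of the other heifers, the lowest of which had 1058 RPM. Without heifer 172 its adjusted p was 0.0213 in limma. For ENSBTAG00000040586, of rank 56, the share was 0.759 (limma adjusted p = 1.10e-06), heifer 178 was lowest on average with 651 to 863 RPM and heifer 362 highest with 1903 to 2649 RPM. The genes of ranks 64 and 20, ENSBTAG00000003228 and ENSBTAG00000011184, had shares of 0.689 and 0.662 (limma adjusted p = 0.000158 and 0.000107). Without heifer 236 the adjusted p of ENSBTAG00000003228 was 0.0584 in limma. At the other end stood ENSBTAG00000013162, of rank 55, with the smallest share of the 100 genes, -0.24 (limma adjusted p = 0.936): the 3 samples of a heifer were no more alike than samples of different heifers.

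**Figure D5:**
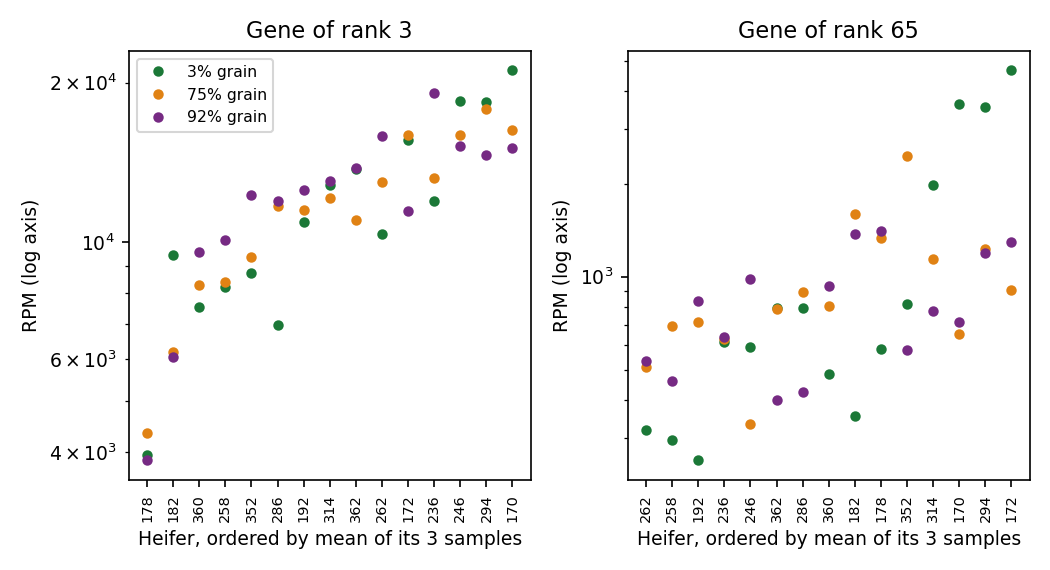
RPM (log axis) of the genes of rank 3 (left) and rank 65 (right) in each heifer, with heifers ordered by the mean of their 3 samples and 1 point per diet. For rank 3 the points of a heifer lie together and heifers differ, from about 4051 RPM on average in heifer 178 to 17490 RPM in heifer 170; for rank 65 the 3 highest values are 3% grain samples, up to 4660 RPM in heifer 172, followed by a 75% grain sample of heifer 352 at 2454 RPM.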

How the data were processed

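Papillae RNA with a RIN above the study's minimum was made into TruSeq mRNA libraries and sequenced as paired ends; per the labels, CASAVA 1.8, TopHat2 2.0.10 and HTSeq were used, with UMD 3.1 and Ensembl genes given by the methods. The authors deposited RPM, 1 file per sample; the methods divide by all mapped reads, but the values sum to 1000000 over genes in every sample. How htseq-count treated reads shared between near-identical genes is not given in the sources used here, so the values of such genes are uncertain. RPM is not scaled by gene length, so ranks are of reads and not of molecules. Each lane held samples of all 3 diets, per the methods, but the labels do not give the lane of a sample, so no comparison was repeated within lanes.

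Dividing by the worth of 1 read gave whole reads for 100% of values, to within 0.01 read. No 2 libraries were duplicates (chi-square over degrees of freedom at least 20.6 in 990 pairs). Genes above 1 RPM in every heifer on any 1 diet entered limma 3.58.1 (R 4.3.3) as log2(RPM + 1), with trended variances and Benjamini-Hochberg adjustment; for changed genes the study's fold change of 1.5 was also required. The study's methods name edgeR; limma was used since the values are RPM, and edgeR 4.0.16 and DESeq2 1.42.0 on recovered reads were alternatives. Both tests were tested on simulated data. Heifer numbers pair the samples through the animal: over the 100 genes, deviations from the diet means had a median correlation of 0.440 in 45 same-heifer pairs and -0.029 in 630 pairs of different heifers.

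The 100 genes, the tests and the lists were chosen with earlier results of these data known. Genes named singly are those with the highest level, the largest and smallest share of variance between heifers and the widest and narrowest spread, of which the text prints a part, and the genes at the borders of the choice. Lists of pathway genes and cell type markers had been drawn up by symbol, but 0 of their symbols could be matched to the IDs, so none gave a result. Sequences were not printed since the tables used here do not pair them with the IDs. Python 3.11.15, numpy 2.4.6, pandas 2.3.3 and matplotlib 3.10.9 were used for the rest.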

Additional observations from a re-analysis of the deposited data

How the results depend on the processing

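Among the 100 genes, the count called between 75% and 92% grain stayed at 0 under every alternative run and without any 1 heifer. With the adjusted p alone it was 0 in all but edgeR with the replicate block, which was chosen after seeing the data and gave 1. Over all tested genes the count of 0 became 14 with the heifer as a replicate block, 2 with TMM scaling, 2 with median-of-ratios scaling, 2 outside mitochondrial genes, 14 in DESeq2 and 30 in edgeR with the block, and 0 to 8 without 1 heifer. With the adjusted p alone it became 92 with the block, 7 with TMM, 7 with median-of-ratios scaling, 6 outside mitochondrial genes, 3 in edgeR, 62 in DESeq2, 154 in edgeR with the block and 0 to 27 without 1 heifer, the highest without heifer 236. The cause was not tested.

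The heifer term passed for 26 of the 100 genes and 2542 of all genes. With only 75% and 92% grain these were 9 and 1327, with fewer samples in the fit, and with no expression filter 17 of the 100, with more genes tested. Without 1 heifer the counts ran from 19 to 29 and from 2089 to 3010. The F of ENSBTAG00000003228 fell from 6.67 to 2.66 without heifer 236, that of ENSBTAG00000031376 from 14.6 to 6.99 without heifer 178 and, without heifer 172, those of ENSBTAG00000014534 from 10.7 to 3.38 and of ENSBTAG00000011184 from 6.98 to 4.56.

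The share of RPM on 3%, 75% and 92% grain was 30.8%, 29.6% and 30.1% outside mitochondrial genes. It was 21.4%, 20.7% and 20.8% for a new list of 100 genes, chosen with a change under 0.25 in size. Of these, 82 were among the original 100 genes. Ranking on 75% or 92% grain or by the median, or no limit on the change, kept between 95 and 98 of the 100 genes and moved the share by less than the SD. Without 1 heifer the shares ran from 25.4% to 25.7%, 25.0% to 25.2% and 25.2% to 25.4%. The counts of 79 and 73 genes with a smaller SD on grain ran from 67 to 87 and from 59 to 82 without 1 heifer, were 51 and 53 without heifers 170 and 172, and were 39 and 41 without heifers 170, 172 and 294, alternatives chosen after seeing the data. TMM moved the median change of all genes from -0.03 to -0.01. Counting error was below the spread between heifers for each of the 100 genes.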
